A study of Mus musculus with 13 samples.

Results

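The 9 genes described here belong to liver glucose and glycogen metabolism and were measured in 13 mouse whole-liver RNA-seq libraries. They were taken by symbol from the 22048 genes of the deposited count table, and 9 of 9 were found and passed the filter on low counts. The members are Pck1, G6pc, Fbp1 and Ppargc1a of gluconeogenesis, Slc2a2, Gckr and Pklr of glucose transport and glycolysis, and Gys2 and Pygl of glycogen metabolism. The series compared livers depleted of hepatic stellate cells, the retinoid-storing pericytes of the liver sinusoid, with livers not depleted of them. The 6 control livers (3 male, 3 female) are labelled as not depleted, with no surgery named. In the depleted group there were 4 livers (1 male, 3 female). The hepatectomised group held 3 livers (2 male, 1 female) that were not depleted and were collected 72 h after partial hepatectomy, an operation that removes part of the organ and leaves a remnant. The means of depletion, strain, age, feeding state and any sham operation are not given in the sources used here, and neither is whether each library came from its own animal. The p-values below therefore measure the spread between these libraries, and each liver counted below stands for 1 library.

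The liver releases glucose by making it from lactate, glycerol and amino acids and by breaking down glycogen, and it takes glucose up after a meal to store it as glycogen or to run it through glycolysis to pyruvate. Glucagon and glucocorticoids raise transcription of the gluconeogenic enzymes in fasting, and insulin lowers it and raises that of the glycolytic and glycogenic genes, so the transcripts of these genes follow the feeding state as well as the condition of the liver. After partial hepatectomy, the remnant grows by division of its hepatocytes while it maintains blood glucose.

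Library totals ran from 35360991 to 51008737 counts, at which a floor of 3 counts corresponds to 0.0588 to 0.0848 CPM (read counts scaled to a common library total), and the 9 members together took 0.324% to 0.758% of a library's counts. The summed level of 8 stellate cell markers (Lrat, Reln, Des, Colec11, Dcn, Hgf, Rgs5, Ngfr) was 192 to 545 CPM in controls, 6.15 to 49.7 CPM in depleted livers and 254 to 427 CPM after hepatectomy. All 8 were lower in depleted than in control livers, and between hepatectomised and control livers the lowest edgeR adjusted p among them was 0.497. Depleted replicate 4 had the 49.7 CPM, and the other 3 depleted livers were at or below 9.53 CPM. The summed level of 8 hepatocyte markers (Alb, Apoa1, Ttr, Apob, Trf, Serpina1c, Fgb, Hnf4a) was 74885 to 141724 CPM in controls, 74007 to 169056 CPM in depleted livers and 131896 to 183508 CPM after hepatectomy. Of these, 1 was higher in depleted livers (Trf) and 2 after hepatectomy (Trf and Fgb). In bulk liver, fewer cells of a type and less RNA per cell cannot be told apart.

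Levels are given as CPM scaled by TMM factors, and differences as log2 fold changes with their standard error (SE) from edgeR's quasi-likelihood test with sex in the model. Benjamini-Hochberg adjustment ran over the 13831 genes tested, and a gene was called at an adjusted p under 0.05. Between depleted and control livers 33.9% of all genes tested were called (18.9%, or 2614, higher and 15.0%, or 2078, lower), and 2 of the 9 members were: Pck1 was higher and Gys2 lower. Between hepatectomised and control livers 8.42% of all genes were called (6.06%, or 838, higher and 2.36%, or 326, lower), and 2 of the 9 members were: Pck1 was higher and Slc2a2 lower. Both comparisons use the same 6 controls. With scaling by library size alone the split of calls moved to 2884 higher and 1471 lower for depletion and to 626 higher and 1566 lower for hepatectomy. The median log2 fold change of the members was 0.12 for depletion and -0.41 for hepatectomy, against -0.03 and -0.02 over all genes tested.

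**Figure D1:**
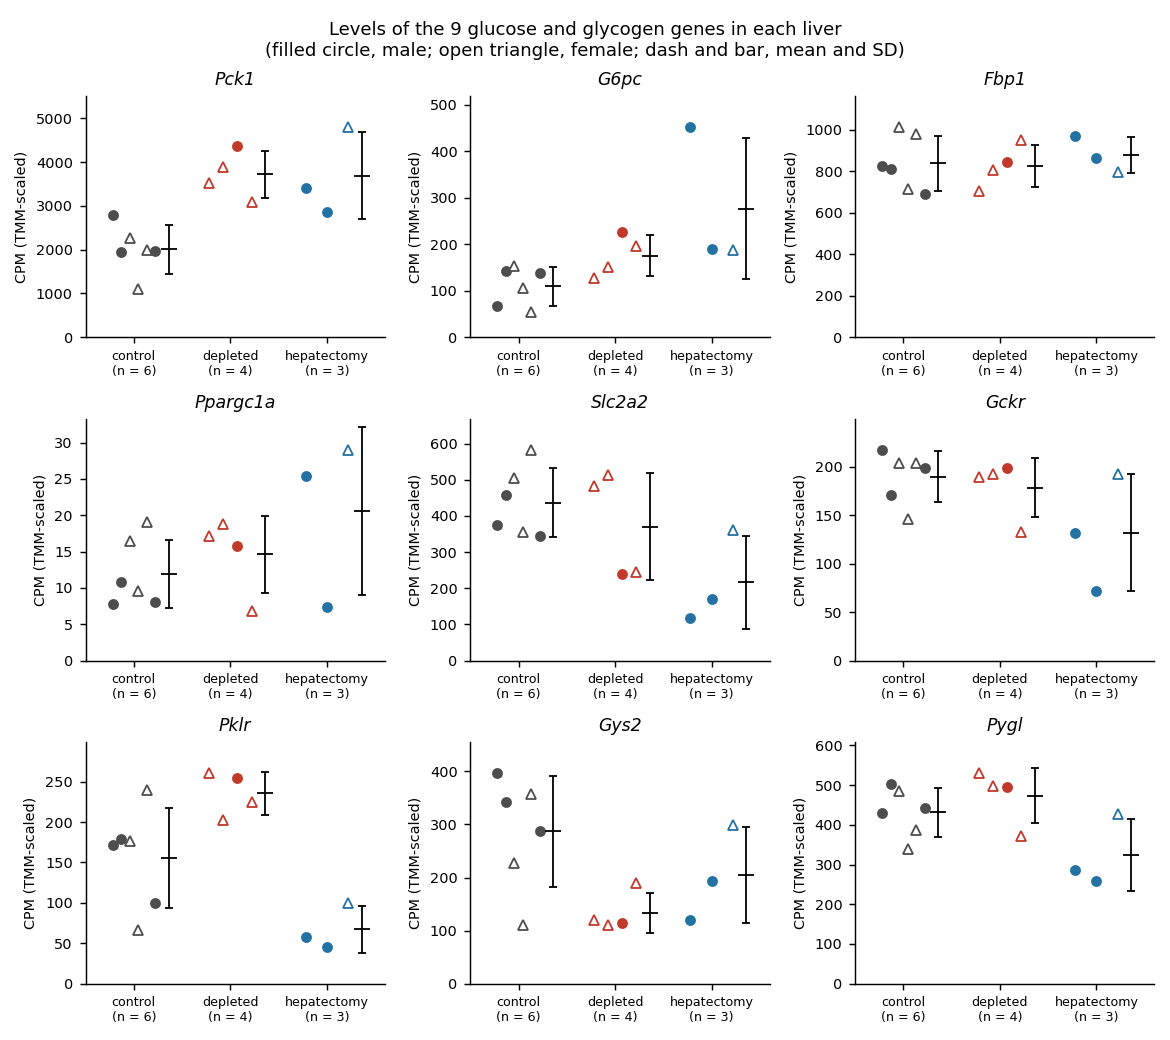
CPM (linear axis from 0, TMM-scaled) of each of the 9 genes in each control, depleted and hepatectomised liver, with filled circles for males, open triangles for females, and dashes and bars for group means and SD. For Pck1, all 4 depleted livers (3097 to 4363 CPM) and all 3 hepatectomised livers (2863 to 4797 CPM) lie above the highest control (2797 CPM).

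**Figure D2:**
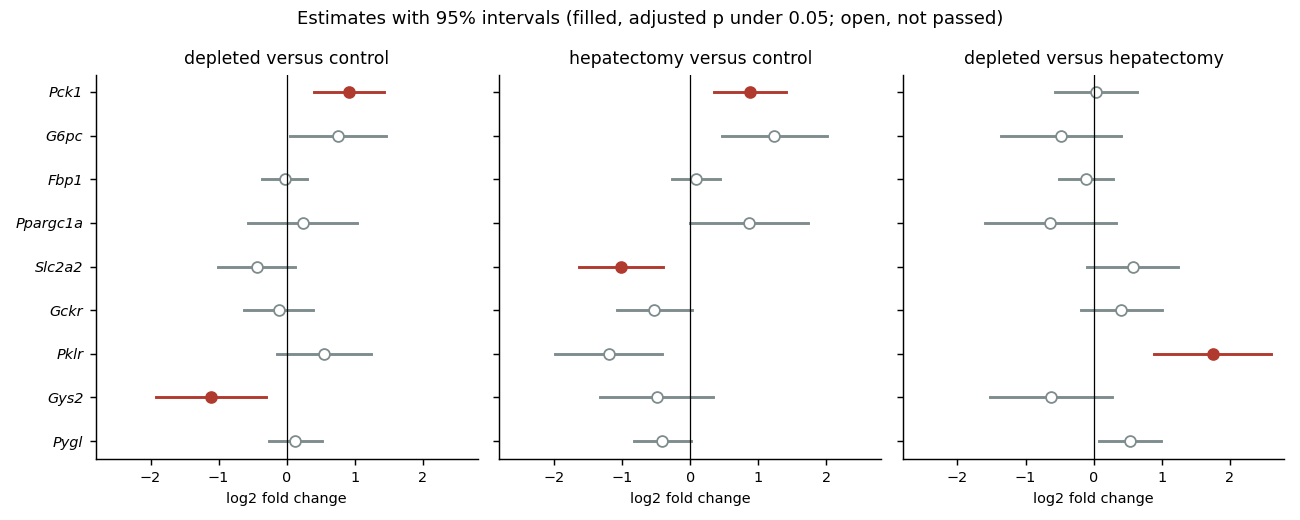
Log2 fold changes with 95% intervals for the 9 genes in the comparisons of depleted with control, hepatectomised with control and depleted with hepatectomised livers; filled points passed an adjusted p of 0.05. Pck1 is filled in both comparisons with control (0.91 and 0.88), Gys2 for depletion (-1.12), Slc2a2 for hepatectomy (-1.02) and Pklr in the direct comparison (1.74).

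Pck1 encodes the cytosolic phosphoenolpyruvate carboxykinase, which turns oxaloacetate into phosphoenolpyruvate and is a principal control step of gluconeogenesis (ENSMUSG00000027513.9, GRCm38 chr2:173153048-173159273, plus strand). Controls ranged from 1094 to 2797 CPM with a median of 1978. The depleted livers 1 to 4 read 3522, 3895, 4363 and 3097 CPM, and the hepatectomised livers 1 to 3 read 3416, 2863 and 4797 CPM. Every depleted and every hepatectomised liver was above every control. Such a separation upward occurred in 16.5% of all genes tested for depletion and in 7.41% for hepatectomy. Pck1 was 1.89-fold higher in depleted livers (log2 fold change 0.91 ± 0.23 SE, 4 against 6 livers, edgeR adjusted p 0.00907). After hepatectomy it was 1.84-fold higher (0.88 ± 0.25 SE, 3 against 6 livers, edgeR adjusted p 0.0459). Between depleted and hepatectomised livers the Pck1 difference was 0.04 with a 95% interval of -0.57 to 0.64 (edgeR adjusted p 0.940). The depletion call was lost without depleted replicate 3, the only male of that group (0.82, edgeR adjusted p 0.067), and among females alone (0.98, edgeR adjusted p 0.0544). The hepatectomy call was lost without any 1 of control replicates 2, 3, 5 and 6 or any 1 hepatectomised liver, and the estimate was 0.50 without hepatectomised replicate 3 (edgeR adjusted p 0.307). It was also lost with scaling by library size alone (0.66, edgeR adjusted p 0.0667) and with replicate number added to the model.

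G6pc encodes the catalytic subunit of glucose-6-phosphatase, the last step of both gluconeogenesis and glycogen breakdown (ENSMUSG00000078650.2, chr11:101367561-101377903, plus strand). Controls lay between 53.8 and 152 CPM (median 122). Depleted livers 1 to 4 were at 127, 152, 227 and 195 CPM, and hepatectomised livers 1 to 3 at 452, 190.4 and 187 CPM. The depleted range overlapped the controls and the hepatectomised range did not. Neither difference passed the edgeR test, with 0.75 ± 0.33 SE for depletion (adjusted p 0.0963) and 1.23 ± 0.35 SE, or 2.35-fold, for hepatectomy (adjusted p 0.0512). Hepatectomised replicate 1 held the highest value, and without it the hepatectomy estimate was 0.79. Both were called by edgeR without control replicate 3, the highest control (1.0 for depletion, adjusted p 0.0340, and 1.39 for hepatectomy, adjusted p 0.0307). The hepatectomy difference was also called by DESeq2 (1.24, adjusted p 0.00865) and by edgeR without sex in the model (1.33, adjusted p 0.0327).

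The 250 bases before the annotated start of Pck1 and G6pc are shown because these are the gluconeogenic members whose hepatectomised range lay above the controls, and the second annotated start of Pklr because that gene separated the depleted from the hepatectomised livers. The starts are RefSeq's, which differ from the gene starts of the count table, so that the last 25 bases for Pck1, 155 for G6pc and all of the Pklr stretch lie inside the gene coordinates given here. The sequences are RefSeq's for GRCm38.p6, in the direction of transcription, and capitals mark matches on either strand to any of 5 motifs. The half-site of the cyclic AMP response element was searched as TGACG. For the forkhead motif of the FOXO and FOXA factors the search was for TGTTTAC. An E-box, as bound by the glucose-responsive factor ChREBP, was searched as CACGTG. The letters taken for the TATA box were TATAAA. The half-site of the hepatocyte factor HNF1 was searched as GTTAAT. No 2 of these matches shared a base in a window shown.
Pck1, chr2:173152823-173153072, plus strand: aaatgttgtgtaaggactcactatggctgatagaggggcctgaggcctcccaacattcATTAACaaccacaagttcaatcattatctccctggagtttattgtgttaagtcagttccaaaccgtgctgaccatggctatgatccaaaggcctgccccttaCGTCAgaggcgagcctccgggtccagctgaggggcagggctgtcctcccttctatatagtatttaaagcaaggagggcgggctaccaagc
G6pc, chr11:101367466-101367715, plus strand: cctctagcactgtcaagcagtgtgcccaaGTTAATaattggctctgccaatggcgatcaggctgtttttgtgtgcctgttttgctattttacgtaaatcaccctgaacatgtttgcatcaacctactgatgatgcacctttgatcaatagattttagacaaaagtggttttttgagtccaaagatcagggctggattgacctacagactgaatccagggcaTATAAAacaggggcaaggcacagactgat
Pklr, second start, chr3:89136373-89136622, plus strand: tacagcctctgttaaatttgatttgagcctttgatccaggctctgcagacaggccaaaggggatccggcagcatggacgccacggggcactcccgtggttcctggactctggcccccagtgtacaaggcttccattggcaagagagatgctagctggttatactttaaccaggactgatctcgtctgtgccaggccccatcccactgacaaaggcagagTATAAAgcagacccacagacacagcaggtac
The Pck1 stretch held the cyclic AMP half-site on the opposite strand 90 to 86 bases before the start and the HNF1 half-site, also on the opposite strand, at 192 to 187 bases. In G6pc, the HNF1 half-site stood 221 to 216 bases and the TATA box 29 to 24 bases before the start. The Pklr stretch held the TATA box 31 to 26 bases before its start. A window was found for 8 of the 9 members, with 9 windows in all. The cyclic AMP half-site also occurred in those of Ppargc1a and Pygl and the HNF1 half-site in that of Gckr. Of 32851 windows of the same length, 17.8% held the cyclic AMP half-site, 6.43% the HNF1 half-site, 12.4% the TATA box, 3.17% the forkhead motif and 6.02% the E-box, and the last pair had no match in a member's window. Only the exact letters were searched, so a window without a match may still hold a variant of the site. The matches are letters in a window and were not tested for binding.

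Fbp1 encodes fructose-1,6-bisphosphatase, the gluconeogenic step that opposes phosphofructokinase (ENSMUSG00000069805.8, chr13:62864753-62888282, minus strand). It was the steadiest member, at 691 to 1012 CPM in controls (median 816), 705, 805, 844 and 949 CPM in depleted livers and 971, 863 and 798 CPM after hepatectomy. All 7 treated livers were inside the control range. The 95% interval of its difference was -0.36 to 0.29 for depletion and -0.27 to 0.43 for hepatectomy (edgeR adjusted p 0.888 and 0.814). The sign of both Fbp1 estimates flipped with scaling by library size alone, to 0.08 and -0.13.

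Ppargc1a encodes PGC-1alpha, a coactivator that drives gluconeogenic and mitochondrial genes in fasting (ENSMUSG00000029167.11, chr5:51454250-51567726, minus strand). Its level was the lowest of the 9, at 7.72 to 19.0 CPM in controls with a median of 10.2. Depleted livers read 17.1, 18.8, 15.7 and 6.84 CPM, and hepatectomised livers 25.4, 7.35 and 28.9 CPM. In each treated group 1 liver lay below every control: depleted replicate 4 and hepatectomised replicate 2. The estimate was 0.23 ± 0.37 SE for depletion and 0.87 ± 0.40 SE for hepatectomy, and neither passed (edgeR adjusted p 0.670 and 0.206). Without depleted replicate 3 the depletion estimate turned to -0.09. The hepatectomy estimate was 0.48 without hepatectomised replicate 1 and 1.22 without hepatectomised replicate 2.

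Slc2a2 encodes GLUT2, the facilitative transporter through which hepatocytes exchange glucose with blood (ENSMUSG00000027690.11, chr3:28697903-28731359, plus strand). Controls lay between 345 and 582 CPM (median 416). Depleted livers 1 and 2 read 483 and 513 CPM and livers 3 and 4 read 240.2 and 246 CPM, so that a pair was inside the control range and a pair below it. Hepatectomised livers 1 and 2 read 117 and 172 CPM, below every control, while replicate 3, the only female of that group, was at 362 CPM within the control range. Slc2a2 was 2.02-fold lower after hepatectomy (-1.02 ± 0.29 SE, 3 against 6 livers, edgeR adjusted p 0.0472). The summed hepatocyte markers of hepatectomised livers 1 and 3 (169382 and 183508 CPM) were above every control and that of liver 2 (131896 CPM) was inside the control range, and their part in the result was not tested. The depletion estimate of -0.44 ± 0.26 SE did not pass (edgeR adjusted p 0.218), and it was -0.28 without depleted replicate 4. The hepatectomy call was lost without any 1 of control replicates 1, 2, 3, 5 and 6 or hepatectomised replicates 1 and 2 (estimates -0.79 to -1.04, edgeR adjusted p 0.0685 to 0.158), and without sex in the model (edgeR adjusted p 0.102).

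Gckr encodes a regulatory protein of the hepatocyte nucleus that limits glucose phosphorylation when glucose is low (ENSMUSG00000059434.6, chr5:31297443-31327314, plus strand). It ranged from 146 to 217 CPM in controls (median 201) and read 189, 193, 199 and 133 CPM in depleted and 131, 71.9 and 192 CPM in hepatectomised livers. Depleted replicate 4 and hepatectomised replicates 1 and 2 lay below every control. Neither difference passed (edgeR), with -0.12 ± 0.23 SE for depletion (adjusted p 0.734) and -0.52 ± 0.25 SE for hepatectomy (adjusted p 0.226). Without hepatectomised replicate 3 the hepatectomy estimate was -0.95 (edgeR adjusted p 0.0549), and without replicate 2 it was -0.23.

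Pklr encodes the liver and red cell pyruvate kinase, the last step of glycolysis and a classical target of carbohydrate feeding (ENSMUSG00000041237.10, chr3:89136142-89146784, plus strand). Controls were widely spread, from 66.8 to 240.0 CPM with a median of 174. Depleted livers 1 to 4 read 260.1, 203, 255 and 225 CPM, and hepatectomised livers 1 to 3 read 57.3, 44.9 and 100.4 CPM. All 4 depleted livers were above all 3 hepatectomised livers, while each group overlapped the controls. In the direct comparison of depleted with hepatectomised livers 23.4% of all genes tested were called (13.3%, or 1837, higher and 10.1%, or 1399, lower, and 3102 and 610 with scaling by library size alone), and Pklr was the 1 member of 9 that was. Upward separation of the ranges occurred in 18.1% of all genes there. Pklr was 3.35-fold higher in depleted than in hepatectomised livers (1.74 ± 0.39 SE, 4 against 3 livers, edgeR adjusted p 0.00759). Against controls the estimates were 0.55 ± 0.31 SE for depletion (edgeR adjusted p 0.205) and -1.20 ± 0.36 SE for hepatectomy (edgeR adjusted p 0.0611), and neither passed. DESeq2 called the latter (-1.19, adjusted p 0.00973), and so did edgeR without control replicate 4, the lowest control (-1.37, adjusted p 0.00739). Exons of Pklr share 711 bases with Hcn3 on the opposite strand, whose highest level in a library was 1.40 CPM.

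Gys2 encodes the liver glycogen synthase, which extends glycogen chains (ENSMUSG00000030244.7, chr6:142422613-142473109, minus strand). Among the controls 5 of 6 lay between 228 and 396 CPM and the other, control replicate 4, at 111 CPM. Depleted livers 1 to 4 read 119, 110.0, 114 and 189.6 CPM, and hepatectomised livers 1 to 3 read 120.2, 193 and 299.8 CPM. Every depleted liver was below those 5 controls, but control replicate 4 was inside the depleted range. Gys2 was 2.17-fold lower in depleted livers (-1.12 ± 0.37 SE, 95% interval -1.92 to -0.31, 4 against 6 livers, edgeR adjusted p 0.0344). The hepatectomy estimate of -0.49 ± 0.38 SE did not pass (edgeR adjusted p 0.463), and it was -1.0 without hepatectomised replicate 3 and -0.20 without hepatectomised replicate 1. The depletion call was lost without control replicate 1 or 5 or depleted replicate 1, 2 or 3 (estimates -0.99 to -1.07, edgeR adjusted p 0.0541 to 0.142). It was also lost among females alone (-0.73, edgeR adjusted p 0.270) and with scaling by library size alone (-0.98, edgeR adjusted p 0.063). A model with replicate number added lost the call too.

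Pygl encodes the liver glycogen phosphorylase, which releases glucose units from glycogen (ENSMUSG00000021069.14, chr12:70190811-70231488, minus strand). It ranged from 339 to 503 CPM in controls (median 436), was at 529, 498, 494 and 372 CPM in depleted livers and at 287, 258 and 427 CPM after hepatectomy. Hepatectomised replicates 1 and 2 were below every control. None of its 3 comparisons passed with edgeR, at 0.12 ± 0.18 SE for depletion (adjusted p 0.630), -0.41 ± 0.19 SE for hepatectomy (adjusted p 0.216) and 0.54 ± 0.21 SE between depleted and hepatectomised livers (adjusted p 0.0887). The last was called without depleted replicate 4 (0.63, edgeR adjusted p 0.040) or without hepatectomised replicate 3 (0.89, edgeR adjusted p 0.0222). The hepatectomy estimate was -0.72 without hepatectomised replicate 3 (edgeR adjusted p 0.0562) and -0.27 without hepatectomised replicate 2. Of the glycogen pair, then, Gys2 and not Pygl was called in depleted livers; whether their changes differ was not tested.

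Some livers stood at the edge of their group for many members. Hepatectomised replicate 3, the only female, was the highest of its group for 7 of the 9 members and hepatectomised replicate 2 the lowest for 5. That replicate stood apart from the rest of its group in markers of other cells, with a summed Kupffer cell level of 58.3 CPM (677 and 243 CPM in replicates 1 and 3) and a summed endothelial level of 70.3 CPM (227 and 168 CPM). Their part in the member and list results that rest on this liver, the Slc2a2 and Pck1 calls for hepatectomy among them, was not tested. Control replicate 4 was the lowest control for 5 members (Gckr, Gys2, Pck1, Pklr and Pygl). Depleted replicate 4, the liver with the most remaining stellate marker signal, was the lowest of its group for 4 members and the highest for Fbp1 and Gys2. Within the controls, 0 of the 9 members differed between 3 males and 3 females by edgeR or DESeq2, where edgeR called 0.738% of 13005 genes. One member, Ppargc1a, had an unadjusted p under 0.05 there (log2 fold change of males over females -0.76 ± 0.27 SE, edgeR adjusted p 0.307).

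**Figure D3:**
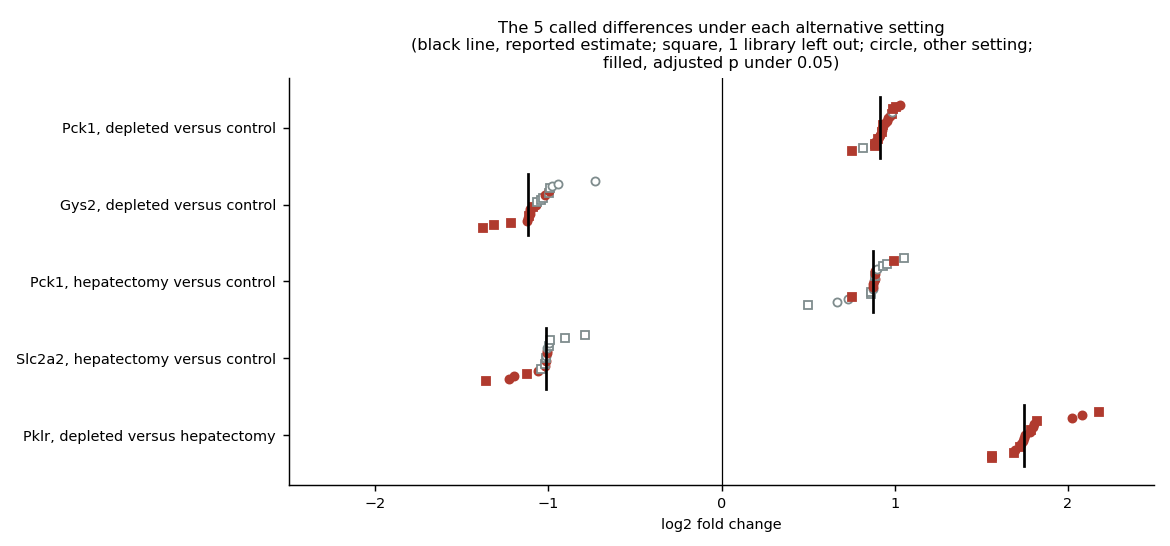
Log2 fold change (linear axis) of the 5 called member differences under each alternative setting, where the black line is the reported estimate, squares leave 1 library out, circles are other settings, and filled marks passed an adjusted p of 0.05. Pklr between depleted and hepatectomised livers is filled under 17 of 17 alternatives (1.56 to 2.18), Pck1 for depletion under 19 of 21 (0.75 to 1.03), Gys2 under 13 of 21, Slc2a2 under 9 of 19 and Pck1 for hepatectomy under 8 of 19, and all marks keep the sign of their line.

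Compared per kilobase of exon, on the scale of CPM per kb, Pck1 was the most abundant member in every group, at 586 in controls, 1085 in depleted and 1077 in hepatectomised livers. Fbp1 followed at 492, 485 and 516. In controls the ranges of Pck1 and Fbp1 overlapped, and in both treated groups they did not. Pygl (113), Gys2 (108), Slc2a2 (75.9), Pklr (48.1), G6pc (45.5) and Gckr (43.8) followed in controls, each overlapping the next, and Ppargc1a (1.81) lay apart from the rest. In depleted livers Gys2 ranked below Pklr, G6pc and Slc2a2, at 50.1 CPM per kb. After hepatectomy G6pc averaged 115 CPM per kb, but hepatectomised replicate 1 was at 187 and the others at 78.9 and 77.6, so that its range overlapped that of Pygl (84.6). Pklr stood before the last at 20.9 CPM per kb, with a range that overlapped that of Gckr (30.4).

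The other genes of these pathways were taken from 4 lists. Over all genes tested 18.9% were higher and 15.0% lower in depleted livers. Of 17 further gluconeogenesis genes, 1 was higher and 1 lower there. With 1 library left out these counts ran from 0 to 2 in each direction, and with scaling by library size alone they were 2 and 0. Got2, the mitochondrial aspartate aminotransferase, was lower (-0.44 ± 0.15 SE, edgeR adjusted p 0.0324). The Got2 call was lost without control replicate 3, 4 or 5 or depleted replicate 1, 3 or 4 (-0.43, edgeR adjusted p 0.115, without depleted replicate 3), and with scaling by library size alone (-0.35, edgeR adjusted p 0.0591). After hepatectomy, 15 of the 17 estimates were positive (median 0.35, against -0.02 over all genes tested). With edgeR 0 of the 17 passed, where 8.42% of all genes did. An unadjusted p under 0.05 was reached by 6, a share not taken over all genes. DESeq2 called 5 of the 17 higher and limma-voom 1. With edgeR 3 were higher without sex in the model, 2 with only those groups fitted, 1 with upper quartile scaling and 1 with replicate number added. With scaling by library size alone edgeR called 0 higher and 2 lower (median 0.15). The 8 hepatocyte markers had a median of 0.55 in the same comparison, with Trf and Fgb called higher, and their part in this list and in the Pck1 and G6pc estimates was not tested.

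Of 31 glycolysis genes tested, 15 were higher and 3 lower in depleted livers (16 and 1 with scaling by library size alone). Over all genes tested 18.9% were higher and 15.0% lower. The median log2 fold change of the list was 0.46. The 3 with the largest increases were Slc16a3, Hk3 and Pfkp, and the cells that express them were not measured here. Slc16a3, the lactate exporter MCT4, averaged 0.269 CPM in controls and 5.02 CPM in depleted livers (4.17 ± 0.46 SE, edgeR adjusted p 3.3e-05). Hk3, a hexokinase of myeloid cells, was at 0.960 to 6.95 CPM in controls and 38.7 to 86.2 CPM in depleted livers (3.93 ± 0.47 SE, edgeR adjusted p 7.32e-05). Pfkp, the platelet-type phosphofructokinase, averaged 2.18 and 24.3 CPM (3.46 ± 0.33 SE, edgeR adjusted p 1.28e-05). All 3 passed under each of 21 alternatives. The 3 that fell were Ldhb, a lactate dehydrogenase subunit (-0.75), Pfkm, the muscle-type phosphofructokinase (-0.69), and Pdk2, an inhibitory kinase of pyruvate dehydrogenase (-0.39; edgeR adjusted p 0.0227, 0.00493 and 0.0367). Without depleted replicate 3, 1 gene of the list was called lower, with Ldhb at -0.76 (edgeR adjusted p 0.076) and Pdk2 at -0.30 (edgeR adjusted p 0.199). Leaving out control replicate 4 or depleted replicate 4 also ended the Ldhb call, and control replicate 1, 3 or 6 or depleted replicate 1 that of Pdk2. Both calls were lost with scaling by library size alone (edgeR adjusted p 0.0507 and 0.107), and that of Ldhb without sex in the model (-0.57, edgeR adjusted p 0.167). Markers of other cells also differed between these livers and controls. The summed level of 7 monocyte and neutrophil markers (S100a8, S100a9, Ly6c2, Ccr2, Chil3, Lcn2, Csf3r) was 5.46 to 26.3 CPM in controls and 1035 to 2124 CPM in depleted livers, with 7 of 7 higher and Lcn2 alone averaging 998.6 CPM in depleted livers. The 6 Kupffer cell markers diverged (52.2 to 465 CPM summed in controls, 569.6 to 1288 CPM in depleted livers): Marco, Adgre1 and Timd4 were higher (4.73, 2.14 and 2.13), Cd5l did not pass (1.49), and the estimates of Clec4f and Vsig4 were negative and did not pass (-3.0 and -0.88). All 3 T cell markers were higher (1.55 to 2.67 CPM summed in controls, 19.0 to 41.6 CPM in depleted livers). Of 6 endothelial markers only Pecam1 was called (1.47, edgeR adjusted p 0.0187), and of 5 cholangiocyte markers only Sox9 (1.27, edgeR adjusted p 0.0336). The part of these markers, and of the lower stellate cell markers, in the results of this list and of the glycogen and regulator lists in depleted livers was not tested.

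After hepatectomy 4 glycolysis genes were higher and 2 lower of the 31 (4 and 4 with scaling by library size alone). Over all genes tested 6.06% were higher and 2.36% lower. Ldha, the lactate dehydrogenase subunit that favours lactate formation, had a mean of 431 ± 113 CPM over controls (SD, n = 6), 1512 ± 331 CPM after hepatectomy (SD, n = 3) and 389 ± 123 CPM after depletion (SD, n = 4). It was higher than in controls (1.75 ± 0.24 SE, edgeR adjusted p 0.00154) under 19 of 19 alternatives, and 3.53-fold lower in depleted than in hepatectomised livers (edgeR adjusted p 6.96e-04). Pdk4, the fasting-induced pyruvate dehydrogenase kinase, averaged 5.17 CPM in controls and 37.6 CPM after hepatectomy (2.77 ± 0.63 SE, edgeR adjusted p 0.0201), and Slc16a3 was also higher (2.31, edgeR adjusted p 0.0123). Pdk1 (-1.22, edgeR adjusted p 0.0189) and Aldoc, a brain-type aldolase (-1.14, edgeR adjusted p 0.0163), were lower. Hk3 and Pfkp averaged 3.27 and 2.25 CPM after hepatectomy and were higher in depleted than in hepatectomised livers (4.27 and 3.39, edgeR adjusted p 8.38e-04 and 2.57e-04). Of the 7 monocyte and neutrophil markers 4 were higher after hepatectomy (S100a8, S100a9, Chil3 and Lcn2, the last also made by hepatocytes in the acute phase). Their sum of 846 to 2540 CPM was nearly all Lcn2 (mean 1854 CPM), while S100a8, S100a9 and Chil3 averaged 6.03, 12.5 and 1.72 CPM and the estimates of Ly6c2 and Ccr2 were 0.12 and -0.09. Of 5 cholangiocyte markers the keratins Krt19 and Krt7 were higher (2.10 and 2.14, edgeR adjusted p 0.00388 and 0.00715), and the summed level of the 5 was 49.1 to 93.0 CPM in controls and 87.0 to 95.4 CPM after hepatectomy. The part of these markers was not tested. Without hepatectomised replicate 2, 0 genes of the list were called lower, and the Pdk4 estimate was 2.01 (edgeR adjusted p 0.10). The Pdk4 call was also lost without control replicate 2 or hepatectomised replicate 3, that of Pdk1 without hepatectomised replicate 1, and those of Aldoc and Slc16a3 without hepatectomised replicate 3 (edgeR adjusted p 0.0795 and 0.0731).

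Of 23 further glycogen genes 22 were tested. In depleted livers 5 were higher and 7 lower, against 18.9% and 15.0% of all genes tested. Among those that rose were the glycogen-targeting subunits of protein phosphatase 1 Ppp1r3b (1.58 ± 0.35 SE, edgeR adjusted p 0.00403), the liver form, which averaged 89.4 CPM in controls and 303 CPM in depleted livers, and Ppp1r3d (2.02, edgeR adjusted p 0.00618; 0.197 and 0.817 CPM), and the glycogen primer Gyg (0.93, edgeR adjusted p 3.73e-04). Among those that fell were Pygm, the muscle phosphorylase (-2.46, edgeR adjusted p 0.00352; 1.35 and 0.243 CPM), Stbd1, which tethers glycogen to membranes (-1.24, edgeR adjusted p 0.00356), and Ppp1r3c, another targeting subunit (-1.03, edgeR adjusted p 0.0381). Targeting subunits thus moved in both directions, and without depleted replicate 3 the list's counts were 2 higher and 4 lower, with Ppp1r3d at 1.53 (edgeR adjusted p 0.0798). The Ppp1r3c call was lost without any 1 of control replicates 1, 3, 4 and 6 or of the 4 depleted livers (edgeR adjusted p 0.0555 to 0.091). Over all genes tested 6.06% were called higher and 2.36% lower after hepatectomy. In this list 9 of 22 had an unadjusted p under 0.05 in either direction, a share not taken over all genes. After adjustment 0 were higher by edgeR or DESeq2 and 4 lower by edgeR (7 with scaling by library size alone). Those lower included Ugp2, which makes the UDP-glucose that glycogen synthase uses (mean 245 CPM after hepatectomy, -1.09 ± 0.22 SE, edgeR adjusted p 0.0119), and the Lafora disease genes Epm2a (-1.21, edgeR adjusted p 0.018) and Nhlrc1 (-1.22, edgeR adjusted p 0.0418). Without hepatectomised replicate 2, 0 of the list were called lower, with Ugp2 at -0.98 (edgeR adjusted p 0.0674). The Epm2a call was lost also without hepatectomised replicate 1, and that of Nhlrc1 without any 1 of the 9 libraries compared (edgeR adjusted p 0.0512 to 0.138).

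**Figure D4:**
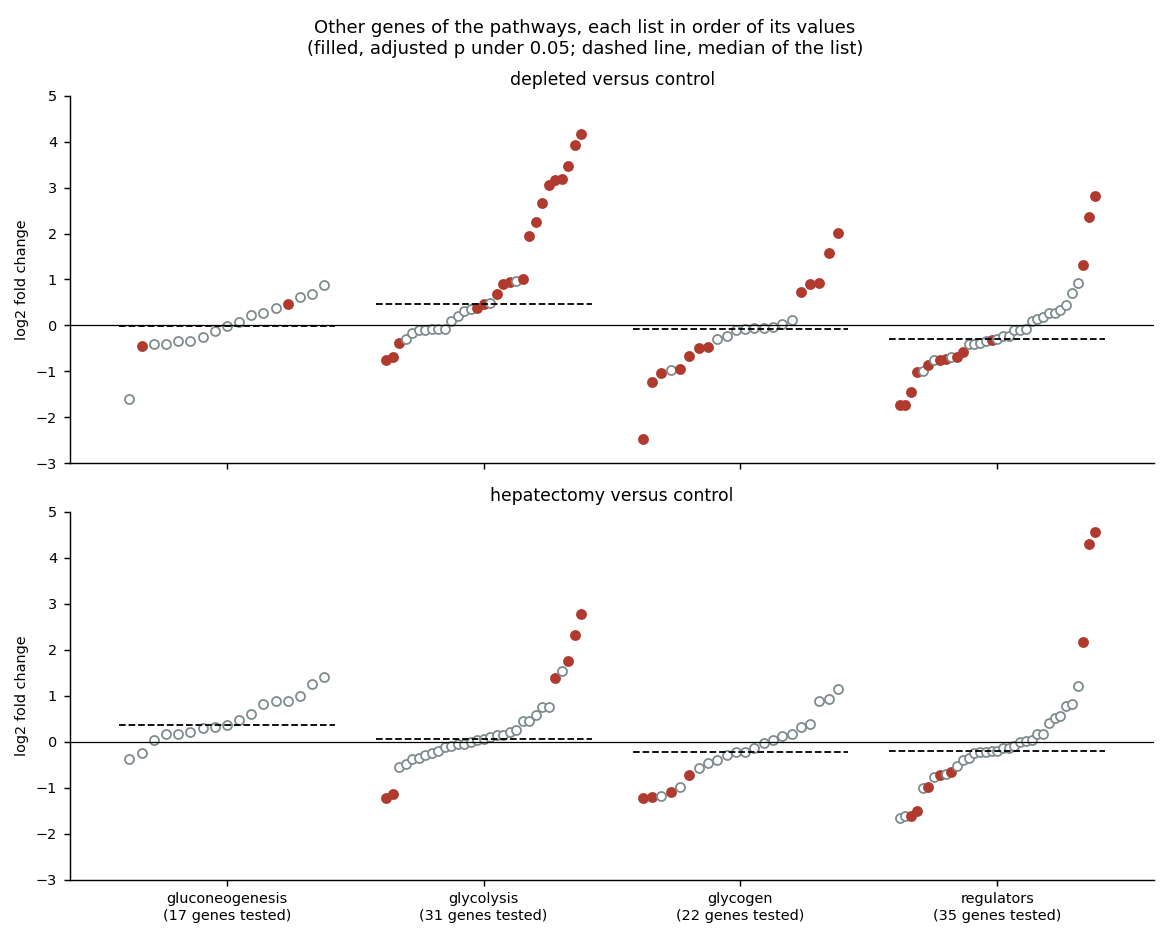
Log2 fold changes of the other genes of the pathways, 1 point per gene in ascending order within each list, for depleted (top) and hepatectomised (bottom) livers against controls; filled points passed an adjusted p of 0.05 and dashed lines are list medians. Glycolysis holds 15 filled points above 0 and 3 below for depletion, against 4 and 2 for hepatectomy. Over all genes tested the shares were 18.9% and 15.0% for depletion and 6.06% and 2.36% for hepatectomy.

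Of 35 regulators, 3 were higher and 10 lower in depleted livers (5 and 9 with scaling by library size alone), against 18.9% and 15.0% of all genes tested. After hepatectomy 3 were higher and 5 lower (3 and 11 with scaling by library size alone), against 6.06% and 2.36% of all genes. With 1 library left out, 2 to 5 were higher and 7 to 10 lower for depletion. For hepatectomy 3 to 5 were higher and 1 to 5 lower, with the 1 lower found without hepatectomised replicate 2. The 3 that rose were Igfbp1, Socs3 and Cebpb in both comparisons, which share their controls. Igfbp1, an insulin-repressed binding protein of insulin-like growth factors, averaged 28.1 CPM in controls, 198 in depleted and 668 in hepatectomised livers (2.82, edgeR adjusted p 0.0133, and 4.57, edgeR adjusted p 0.00812). Its depleted livers spanned 18.5 to 351 CPM, and the depletion call was lost without depleted replicate 1 (2.42, edgeR adjusted p 0.052) or 3 (2.17, edgeR adjusted p 0.122) and among females alone (2.19, edgeR adjusted p 0.215). Socs3, a feedback inhibitor of cytokine signalling that also dampens the insulin receptor, rose by 2.35 and 4.29 (edgeR adjusted p 0.00119 and 3.44e-04). Cebpb, a transcription factor of Pck1 and of the acute phase, rose by 1.31 and 2.18 (edgeR adjusted p 0.00102 and 4.07e-04). In depleted livers Irs1, an adaptor of the insulin receptor, Trib3, a pseudokinase inhibitor of Akt, and Ppara, the fatty acid receptor of the fasting response, were lower (-1.74, -1.73 and -1.45; edgeR adjusted p 0.00114, 0.00999 and 0.0019). Trib3 was at an edgeR adjusted p of 0.0504 without depleted replicate 3. After hepatectomy Ppargc1b (-1.61), Cebpa (-1.50), a factor of the differentiated hepatocyte, and Srebf1 (-0.98), an insulin-driven factor of lipid synthesis, were lower (edgeR adjusted p 0.0483, 0.00301 and 0.0378). Cebpa passed under 19 of 19 alternatives, Srebf1 under 10 and Ppargc1b under 7. Srebf1 was lost without any 1 of these 9 libraries but control replicate 4 (edgeR adjusted p up to 0.141), and Ppargc1b without any 1 but control replicate 4 and hepatectomised replicate 3 (up to 0.196).

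Neither receptor of insulin or glucagon nor Foxo1 passed in the reported fit of either comparison. Foxo1, the insulin-inhibited activator of G6pc and Pck1, gave 0.44 for depletion and 0.55 for hepatectomy (edgeR adjusted p 0.0786 and 0.0985). It was called for depletion without depleted replicate 4 (0.59, edgeR adjusted p 0.00753) and with scaling by library size alone (0.53, edgeR adjusted p 0.0232), and for hepatectomy with only those groups fitted (0.58, edgeR adjusted p 0.0449). Insr, the insulin receptor, gave -0.29 and -0.22 (edgeR adjusted p 0.174 and 0.463), and Gcgr, the glucagon receptor, -0.40 and -0.19 (edgeR adjusted p 0.0825 and 0.542). Gcgr was called for depletion without depleted replicate 4 (-0.51, edgeR adjusted p 0.0292). Among females alone 2695 of 13444 genes were called for depletion, against 4692 of 13831 in the reported fit. The depletion counts of the lists there were 0 higher and 0 lower of 16 for gluconeogenesis (1 with an unadjusted p under 0.05), 12 and 0 of 31 for glycolysis, 2 and 3 of 22 for glycogen and 2 and 5 of 35 for the regulators. DESeq2 on all livers gave 3 and 2 for gluconeogenesis, 17 and 3 for glycolysis, 5 and 7 for glycogen and 5 and 12 for the regulators. Apart from leaving 1 library out, the alternative settings, DESeq2 among them, called 2695 to 5207 genes for depletion. The all-gene split by direction for females alone and for DESeq2 is not given here, so these list counts are not read against it.

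Likeness of profiles was measured as the mean absolute difference of centred log2 CPM over the 13 libraries, among 10548 genes, and is a description. Nearest to Pck1 were C4b (0.19) and Slc37a4 (0.22), the transporter that brings glucose-6-phosphate to glucose-6-phosphatase, where the mean deviation of Pck1 itself was 0.46. Slc37a4 itself stood at 138 ± 37.0 CPM over controls (SD, n = 6), 215 ± 23.1 CPM after depletion (SD, n = 4) and 177 ± 64.2 CPM after hepatectomy (SD, n = 3). Slc2a2 was nearest to Slc10a1, the hepatocyte bile acid uptake transporter (0.17), and Zfp873 (0.22), and Gys2 to Npc1 (0.26) and Acsm5 (0.27). Pklr was nearest to Dusp7 (0.26) and Rassf5 (0.30), G6pc to Pnrc1 and Leprotl1 (both 0.31) and Ppargc1a to Sult1d1 (0.27) and Slc25a32 (0.28). For Fbp1 they were Zdhhc20 and Sdf4 (both 0.12), for Gckr Pou6f1 (0.14) and Med12 (0.16), and for Pygl Man2b1 (0.13) and Abl2 (0.14). The closest pair of members was Gckr and Pygl (0.20), while the member nearest to Pck1 was Fbp1 at 0.45.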

How the data were processed

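Poly(A) RNA of liver was sequenced in 13 stranded libraries, per the labels' protocols. The deposited table holds whole-number read counts per gene with the exon coordinates and summed exon length; build mm10, STAR 2.7.1a, SAMtools 1.15.1 and featureCounts 1.6.4 are listed per the submitters' processing notes, and the strand and multiple-mapping settings are not given in the sources used here. Of the gene IDs, 21741 matched a symbol and 307 did not; 99.9% of those matched overlap the same gene of GENCODE M21 (GRCm38).

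Counts were tested with edgeR 4.0.16 (R 4.3.3): TMM scaling, filterByExpr, and a robust quasi-likelihood fit of group plus sex to the 13 libraries with 1 shared estimate of the spread (biological coefficient of variation 31.4%), two-sided, Benjamini-Hochberg adjusted. SEs are the log2 fold change divided by the root of F. Male and female controls were fitted alone. Libraries of a group differed by more than sampling noise in every pair. The fitting code was run on simulated counts with known changes, as a check of the code and not of the calls given here. Alternatives were other scalings and filters, DESeq2 1.42.0, limma-voom 3.58.1, no sex term, only the groups compared, females only, a replicate block and each library left out; a group-by-sex interaction was added after seeing the data.

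The members and gene lists were chosen with earlier results of these data known. Besides the members, Foxo1, Insr and Gcgr, the text names up to 3 called genes per list, direction and comparison with control by size of change, and the 2 genes of nearest profile to each member; some genes that this rule names are not reported here.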

Additional observations from a re-analysis of the deposited data

Results flagged for a closer look

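In groups of 4 to 6 livers, 4 values stood far from the rest of their group by Dixon's criterion, among 82 groups of 41 genes, where chance gives about 1 in 20, or 4.1. Members gave 2 of them, over 18 groups. Gckr in depleted replicate 4 was 133 CPM against 189 CPM for the next liver, a gap of 0.857 of the range (critical value 0.829). Gys2 in the same liver was 189.6 CPM against 119 CPM for the next, a gap of 0.886 of the range. That liver also held the highest summed stellate marker level of its group (49.7 CPM), whose part was not tested. Pfkp in control replicate 6 was 0.840 CPM against 2.14 CPM for the next control (gap 0.669, critical value 0.625). That liver also had the lowest summed Kupffer cell and endothelial marker levels of its group (52.2 CPM against 312 to 465, and 68.7 CPM against 230.1 to 332), whose part was not tested. Ppp1r3b in control replicate 5 was 189.3 CPM against 92.6 CPM for the next control (gap 0.648).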

How the results depend on the processing

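Of 630 member estimates under alternative settings, 564 kept direction and call, 31 lost a call, 13 gained one and 22 changed sign; the causes were not tested. Genes called for depletion numbered 4692, 2695 in females only and 2960 to 4817 with 1 library left out (2960 without depleted replicate 3). For hepatectomy 1164 were called, 1939 by DESeq2, 2192 with library size alone (median of all genes -0.24), 632 with the replicate block and 483 to 1331 with 1 left out (lowest without hepatectomised replicate 2). Between depleted and hepatectomised livers 3236 were called, 2105 with only those groups fitted and 1709 to 3850 with 1 left out (lowest without depleted replicate 3); library size alone moved the median of all genes there to 0.27. Between the sexes 96 were called, 445 by DESeq2 and 32 to 200 with 1 left out. Members called for depletion were 2 and became 0 in females only, 1 with library size alone, 1 with the block and 0 to 3 with 1 library left out (3 without control replicate 3, where G6pc joined). For hepatectomy they were 2 and became 4 with DESeq2 (Pck1, G6pc, Pklr, Slc2a2), 3 with library size alone (Pklr, Slc2a2 and Pygl, all lower), 2 without the sex term (Pck1 and G6pc), 1 with limma-voom, 1 without the low-count filter, 0 with only those groups, 1 with the block (Slc2a2) and 0 to 3 with 1 left out (3 without control replicate 4, where Pklr joined). Between depleted and hepatectomised livers 1 became 3 with library size alone, 2 with the block (Pklr and Pygl) and 1 to 2 with 1 left out. Signs changed for Fbp1 with library size alone (0.084 for depletion, -0.13 for hepatectomy, 0.22 between the treated groups) and upper quartile scaling (0.0077 for depletion), for Pck1 between treated groups with only those fitted (-0.039), for Pklr between sexes with limma-voom (0.036) and for Ppargc1a in depleted females (-0.068). With 1 library left out, estimates crossed 0 for depletion in Fbp1 (-0.096 to 0.040), Gckr (-0.27 to 0.0011) and Ppargc1a (-0.086 to 0.48), for hepatectomy in Fbp1 (-0.0072 to 0.21), between treated groups in Pck1 (-0.12 to 0.47), and between sexes in G6pc (-0.16 to 0.54), Gckr (-0.062 to 0.17) and Pklr (-0.47 to 0.30).

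With 3 or 4 same-numbered pairs per comparison, it cannot be settled whether replicate numbers pair the libraries. After the group and sex fit, same-numbered libraries correlated at a mean of 0.12 (depletion, 4 pairs, 1 over 0.1), -0.05 (hepatectomy, 3 pairs, 0 over 0.1) and 0.16 (between treated groups, 3 pairs, 2 over 0.1). Differently numbered libraries averaged -0.02, 0.01 and -0.05 in the same order. About group means alone the 3 hepatectomy pairs, which share sex, gave 0.11 to 0.52. Own-number correlations were best for 3 of 8, 0 of 6 and 4 of 6 libraries in these comparisons. With the block, Gys2 for depletion was -0.94 (edgeR adjusted p 0.237) and Pck1 for hepatectomy 0.73 (edgeR adjusted p 0.122), and of the named pathway calls 4 of 19 for depletion and 5 of 14 for hepatectomy were lost, Igfbp1 in both (1.97 and 3.75, edgeR adjusted p 0.164 and 0.0890). In females only 7 of these 19 were lost, and with library size alone 4 of 19 and 0 of 14. At these depths every member had counts far above the floor of 3, so the number of libraries and the spread between them set the precision.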

Other observations

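A group-by-sex interaction, added after seeing the data, asked whether the difference from control was unlike in males and females. By edgeR it called 0 members in either comparison and 3 genes for depletion and 0 for hepatectomy of 13831. For hepatectomy 1000 genes, 7.23%, had an unadjusted p under 0.05, among them 3 of the 9 members: the male minus female differences were -0.83 for Pygl, -1.0 for Gckr and -1.50 for Gys2 (edgeR adjusted p 0.679 to 0.690). These values rest on 1 hepatectomised female, hepatectomised replicate 3, and those for depletion on 1 depleted male, depleted replicate 3. No other tool was run on the interaction.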
